A study of Homo sapiens with 16 samples.

Results

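The genes described here carry out or control the synthesis of cholesterol and of fatty acids. They were chosen by name as 31 gene symbols, all 31 of which were found among the 20307 genes of the array table, on 68 probe sets. A probe set is a group of array probes for the same transcript, and the value of a gene is the mean of its probe sets. By role they form 7 genes of the mevalonate arm, 11 of the squalene and sterol arm, 6 of sterol sensing and transport, and 7 of fatty acid synthesis.

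Total RNA came from 16 subcutaneous tumours in female nude mice of BALB/c background, injected at 5 weeks of age, with 1 array per tumour. All tumours grew from PC-3, a cell line long established from human prostate cancer, as 4 derived lines with 4 tumours each. In mock, telomeres were short and exogenous hTERT, the catalytic protein of telomerase, was absent. LhTERTL had long telomeres with exogenous hTERT present. Telomeres were likewise short and exogenous hTERT absent in mock/cre+, and LhTERTL/cre+ had long telomeres with exogenous hTERT absent; both carry the label cre+, the Cre recombinase. Because 1 line stands for each group, effects of telomere length and other differences between lines cannot be told apart, and the tests take their error from tumours within lines. Nude mice lack a thymus and so most T cells.

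Cholesterol is built from acetyl-CoA through mevalonate, farnesyl diphosphate, squalene and lanosterol, and fatty acids from acetyl-CoA through malonyl-CoA. The SREBP transcription factors switch on both sets of genes when membranes of the endoplasmic reticulum are poor in sterol. SCAP carries the SREBPs to the Golgi for activation, and the INSIG proteins hold SCAP back when sterol is plentiful. Prostate cancer cells are known for active sterol and fatty acid synthesis.

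Values are on a log2 scale on which 0 is the median of a probe set in the 16 tumours. They show differences between tumours and hold no expression level, so genes cannot be ranked by abundance and the levels of markers of the labelled cell type could not be judged. The word called means an adjusted p under 0.05 by limma, fitted over all 20307 genes. In bulk RNA, fewer cells of a type and less RNA per cell cannot be told apart. Signs of RNA quality differed between lines. For the control transcripts GAPDH and beta-actin, the log2 ratio of 3' to 5' signal averaged 0.64 ± 0.38 (SD, n = 4) in mock/cre+, against 0.07 ± 0.18 in mock, -0.08 ± 0.15 in LhTERTL and -0.07 ± 0.21 in LhTERTL/cre+. Long minus short telomeres was -0.43 (p = 0.00855 by a two-sided exact permutation test, 0.0427 adjusted over 5 comparisons), so the ratio moved with the main comparison. LhTERTL/cre+ minus mock/cre+ was -0.71 (p = 0.0286 by the same exact test, which with 4 against 4 can go no lower, and 0.0476 adjusted). Poly-A spike controls were high on 5 of the 16 arrays, with at least 1 in every line.

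The genes of sterol synthesis were mostly higher in the long-telomere tumours. Averaged over LhTERTL against mock and LhTERTL/cre+ against mock/cre+, 17 of the 31 genes were called higher, 2 were called lower and 12 were not called. Among all genes 32.5% were called, 18.4% higher and 14.1% lower. The median difference of the 31 genes was 0.22 log2 units, beside 0.02 over all genes. The largest difference was in ACAT2 at 1.08 ± 0.08 (SE, 8 against 8 tumours), a 2.11-fold difference, followed by INSIG1 at 0.90 ± 0.14, STARD4 at 0.88 ± 0.16 and FDFT1 at 0.81 ± 0.11. The genes called lower were INSIG2 at -0.46 ± 0.08 and HSD17B7 at -0.24 ± 0.06. ACAT2, STARD4, PMVK, INSIG2 and HSD17B7 are among the 9 genes measured by a single probe set. For ACAT2 it is of the _s_at kind, which an alternative run left out. Of the 31 genes 5 were called and differed at least 1.5-fold, beside 4.57% of all genes. They were ACAT2, INSIG1, STARD4, FDFT1 and ELOVL6.

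**Figure D1:**
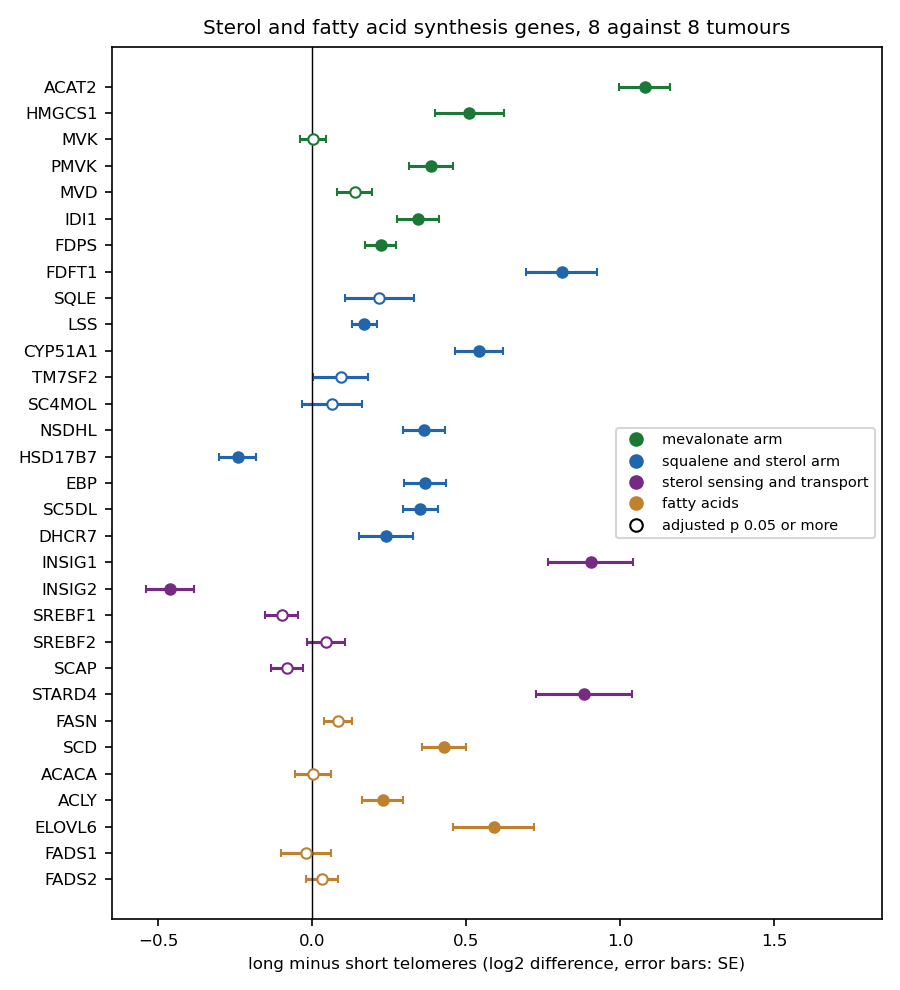
Difference between long-telomere and short-telomere tumours in log2 units for each of the 31 genes, coloured by role, with SE bars; open circles were not called. Most points of the mevalonate and sterol arms lie right of 0, up to 1.08 for ACAT2, while INSIG2 lies at -0.46.

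Without the 4 mock/cre+ tumours, the mean of LhTERTL and LhTERTL/cre+ was set against mock alone. This called 9 genes higher and 1 lower, with 21.5% of all genes called. It differs from the main comparison in that LhTERTL/cre+ has no control line with Cre and fewer arrays are used. The 9 calls lost were those of HMGCS1 (0.42), PMVK (0.24), IDI1 (0.16), NSDHL (0.13), HSD17B7 (-0.06), DHCR7 (0.28), STARD4 (0.57), ACLY (0.16) and ELOVL6 (0.44). When the model also held the 3'/5' control ratio, 16 of the 19 calls were kept, and those of LSS, HSD17B7 and ACLY were lost. In that fit 25.7% of all genes were called. With the line as the unit, 2 lines against 2, limma called 0 of the 31 genes after adjustment and 13 at an unadjusted p under 0.05. It called 0 of all 20307 genes after adjustment and 3218 at an unadjusted p under 0.05, so the 0 is not particular to these genes.

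In the mevalonate arm, 5 of 7 genes were called higher and 0 lower in the long-telomere tumours, beside 18.4% and 14.1% of all genes. The differences of the 7 genes ran from 0.0031 to 1.08. ACAT2, the cytosolic thiolase that joins acetyl-CoA units, read -0.61, -0.54, -0.50 and -0.16 in mock tumours 1 to 4 and -0.66, -0.94, -0.84 and -1.08 in mock/cre+. It read 0.47, 0.16, 0.46 and 0.36 in LhTERTL and 0.67, 0.58, 0.31 and 0.28 in LhTERTL/cre+. All 8 long-telomere tumours lay above all 8 short-telomere tumours, which was so for 3.91% of all genes. By the mean of their probe sets it was also so for FDFT1, INSIG1 and, narrowly, LSS. The reverse held for 0 of the 31 genes and 2.29% of all genes. The adjusted p was 5.32e-08, and ACAT2 was called in both pairs, by 0.82 ± 0.12 in LhTERTL against mock and 1.34 ± 0.12 in LhTERTL/cre+ against mock/cre+. The difference between these, -0.52 ± 0.17, did not pass the test (adjusted p = 0.0516). ACAT2 was also lower in mock/cre+ than in mock (-0.43 ± 0.12 log2 units, adjusted p = 0.0156).

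HMGCS1, the HMG-CoA synthase, read -0.50, -0.60, -0.48 and 0.37 in mock and -0.30, -0.69, -0.34 and -0.57 in mock/cre+. Its LhTERTL tumours read 0.16, -0.07, 0.08 and 0.14 and its LhTERTL/cre+ tumours 0.23, 0.06, 0.09 and 0.30. Tumour mock 4 exceeded every long-telomere tumour, and the other 7 short-telomere tumours lay below all of them. The difference was 0.51 ± 0.11 (adjusted p = 0.00176), and 0.62 without mock 4. Of its 2 probe sets 1 was called (0.69) and the other was not (0.33, adjusted p = 0.0563). PMVK, which makes mevalonate diphosphate, read 0.02, -0.26, -0.19 and 0.13 in mock and -0.49, -0.45, -0.28 and -0.24 in mock/cre+. Its values were 0.38, 0.27, 0.20 and 0.20 in LhTERTL and 0.32, 0.07, -0.02 and -0.11 in LhTERTL/cre+. LhTERTL lay wholly above mock and LhTERTL/cre+ wholly above mock/cre+, at a difference of 0.39 ± 0.07 (adjusted p = 0.000393).

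IDI1, the isopentenyl diphosphate isomerase, read -0.16, -0.29, -0.24 and 0.27 in mock and -0.37, -0.59, -0.41 and -0.47 in mock/cre+. The long-telomere tumours ran from 0.05 to 0.12 in LhTERTL and from -0.02 to 0.10 in LhTERTL/cre+. Only mock 4 among the short-telomere tumours exceeded any of them, and the difference was 0.34 ± 0.07 (adjusted p = 0.000708). Its 3 probe sets are all of the _x_at kind, whose probes can match other genes, and 1 of them showed -0.07 (not called) against 0.53 and 0.58 for the others. FDPS, the farnesyl diphosphate synthase, was higher by 0.22 ± 0.05. MVK, the mevalonate kinase, differed by 0.0031 (adjusted p = 0.970) and MVD, the mevalonate diphosphate decarboxylase, by 0.14 (adjusted p = 0.0826); neither was called.

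**Figure D2:**
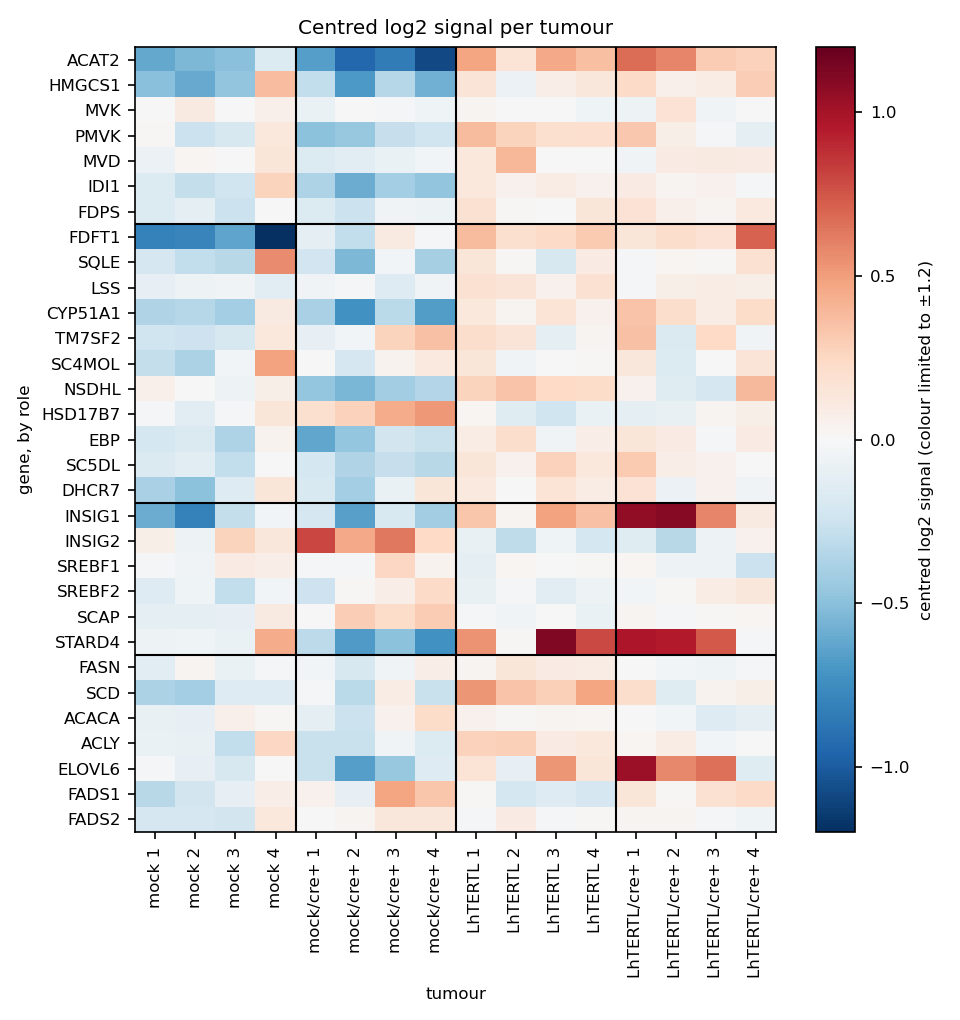
Centred log2 signal of the 31 genes (lines, grouped by role) in each of the 16 tumours (columns, grouped by line), red above and blue below the median of the 16. The mock and mock/cre+ columns are mostly blue in the mevalonate and sterol arms, except mock 4, which was the highest tumour of its line for 23 of the 31 genes.

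In the squalene and sterol arm, 7 of 11 genes were called higher and 1 lower, beside 18.4% and 14.1% of all genes. FDFT1, the squalene synthase that commits farnesyl diphosphate to sterols, read -0.81, -0.79, -0.64 and -1.56 in mock, -0.12, -0.29, 0.10 and -0.02 in mock/cre+, 0.38, 0.19, 0.23 and 0.32 in LhTERTL, and 0.15, 0.21, 0.18 and 0.71 in LhTERTL/cre+. The mock line was low and the other 3 lines lay closer together. By the mean of its probe sets, all 8 long-telomere tumours still lay above all short-telomere ones. This did not hold for 1 of its probe sets. It read -0.19, -0.40, -0.10 and 0.16 in LhTERTL, against 0.29, 0.02, 0.46 and 0.11 in mock/cre+. FDFT1 was 1.23 ± 0.16 higher in LhTERTL than in mock (adjusted p = 5.40e-05), 0.87 ± 0.16 higher in mock/cre+ than in mock (adjusted p = 0.00113), and 0.39 ± 0.16 higher in LhTERTL/cre+ than in mock/cre+, which was not called (adjusted p = 0.0854). The difference between the telomere comparisons was 0.84 ± 0.23 (adjusted p = 0.0262). Mock 4, the tumour with high values of most sterol genes, had the lowest FDFT1 of all 16, at -1.97 and -2.07 by 2 of its probe sets and -0.64 by the third. Without mock 4 the difference between long and short was 0.71.

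CYP51A1, which removes a methyl group from lanosterol, read -0.36, -0.34, -0.41 and 0.11 in mock and -0.39, -0.73, -0.32 and -0.67 in mock/cre+. It ran from 0.03 to 0.16 in LhTERTL and from 0.09 to 0.34 in LhTERTL/cre+. Apart from mock 4, every short-telomere tumour lay below every long-telomere tumour, and both pairs were called, at 0.34 ± 0.11 and 0.74 ± 0.11 (0.54 ± 0.08 on average, adjusted p = 3.92e-05). SC5DL, now named SC5D, is the sterol C5 desaturase. It read -0.18, -0.12, -0.30 and 0.01 in mock, -0.21, -0.36, -0.28 and -0.34 in mock/cre+, 0.15, 0.05, 0.28 and 0.13 in LhTERTL, and 0.31, 0.08, 0.05 and -0.01 in LhTERTL/cre+. The lines of each pair did not overlap, and the average difference was 0.35 ± 0.06 (adjusted p = 0.000130). That difference came from 1 of its 2 probe sets, at 0.69, while the other showed 0.01 (not called).

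EBP, a sterol isomerase, read -0.21, -0.17, -0.37 and 0.04 in mock and -0.62, -0.46, -0.22 and -0.27 in mock/cre+. It read 0.09, 0.21, -0.04 and 0.08 in LhTERTL and 0.14, 0.10, -0.02 and 0.10 in LhTERTL/cre+, so only mock 4 overlapped with the long-telomere tumours. The difference was 0.37 ± 0.07 (adjusted p = 0.000404). Its probe sets at 0.42 and 0.65 were called, and that at 0.03 was not. NSDHL, which takes part in removing the C4 methyl groups, read 0.06, -0.01, -0.06 and 0.07 in mock, -0.47, -0.55, -0.42 and -0.35 in mock/cre+, 0.27, 0.34, 0.24 and 0.22 in LhTERTL, and 0.05, -0.15, -0.20 and 0.39 in LhTERTL/cre+. Here mock/cre+ stood apart below mock (-0.46 ± 0.10 log2 units, adjusted p = 0.00291), and the LhTERTL/cre+ tumours spread across the range of mock. The average difference between long and short was 0.36 ± 0.07, and 0.13 without the mock/cre+ tumours (adjusted p = 0.359).

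Of the other sterol genes, LSS, the lanosterol synthase, was called higher at 0.17 ± 0.04. Long and short tumours almost touched, with -0.0205 in LhTERTL/cre+ 1 and -0.0214 in mock/cre+ 2. LSS was not called in LhTERTL/cre+ against mock/cre+ (0.11 ± 0.06, limma adjusted p = 0.158). Between long and short its probe set at 0.24 was called, and those at 0.12 and 0.14 were not. DHCR7, which makes cholesterol from its last precursor, was called at 0.24 ± 0.09 (adjusted p = 0.0432). That call ended in 10 of the 16 fits that left out 1 tumour. The DHCR7 probe set at 0.33 was called and that at 0.15 was not. HSD17B7, a sterol ketone reductase measured by a single _x_at probe set, was called lower at -0.24 ± 0.06, and its values were highest in mock/cre+ (0.36 ± 0.15, SD, n = 4). Without that line it differed by -0.06. SQLE, the squalene epoxidase, at 0.22, TM7SF2, a sterol reductase, at 0.09 and SC4MOL, now MSMO1, a sterol methyl oxidase, at 0.06 were not called. Of 4 SQLE probe sets, 2 were called higher (0.39 and 0.58) and 2 were not called (0.16 and -0.25).

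**Figure D3:**
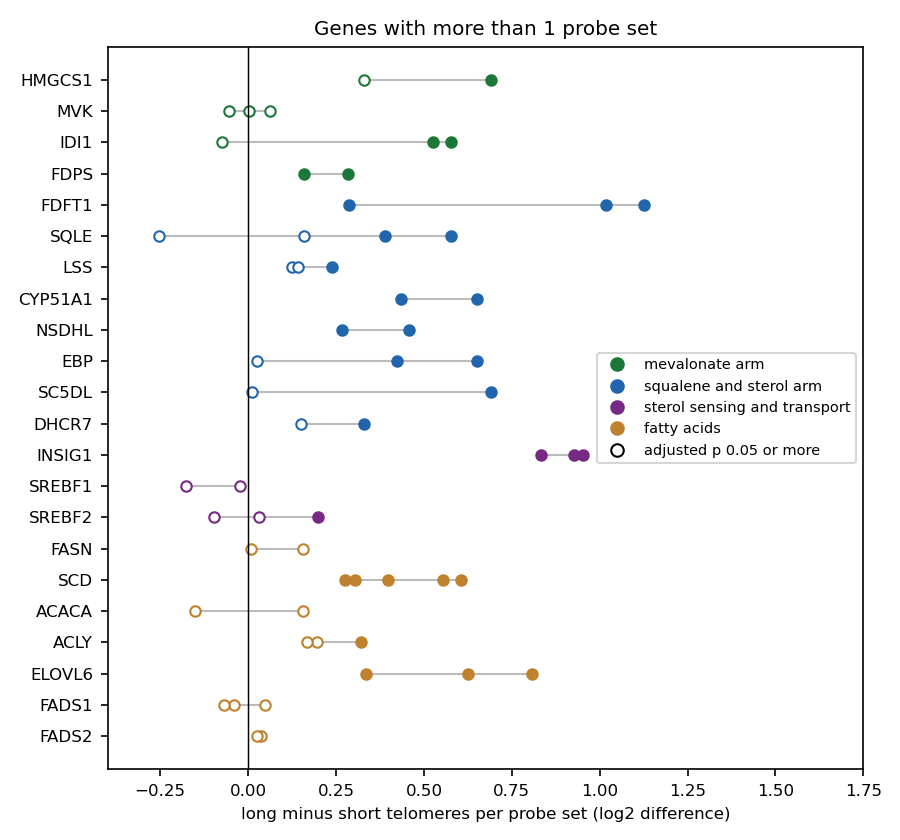
Long minus short difference in log2 units of each probe set for the 22 genes with more than 1, joined by a grey line per gene; open circles were not called. No gene had probe sets called in opposite directions, and SC5DL, FDFT1, EBP, IDI1 and SQLE each had a probe set well below the rest.

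Among the 6 genes of sterol sensing and transport, 2 were called higher, 1 was called lower and 3 were not called, with a median of -0.02. With 32.5% of all genes called, nothing is read from a count over 6 genes. The INSIG genes, which encode a pair of related retention proteins, differed in opposite directions. INSIG1, itself an SREBP target, read -0.60, -0.81, -0.28 and -0.03 in mock and -0.20, -0.65, -0.19 and -0.42 in mock/cre+. It read 0.34, 0.03, 0.48 and 0.35 in LhTERTL and 1.07, 1.09, 0.58 and 0.11 in LhTERTL/cre+. By the mean of its probe sets, all long-telomere tumours exceeded all short-telomere tumours, by 0.90 ± 0.14 on average (1.87-fold, adjusted p = 7.63e-05). Its 3 probe sets gave 0.95, 0.83 and 0.93. The separation did not hold for the probe set at 0.83. There LhTERTL 2 read -0.06, below mock 4 (0.03) and mock/cre+ 1 (-0.03). INSIG2 read 0.07, -0.06, 0.27 and 0.14 in mock, 0.80, 0.46, 0.63 and 0.24 in mock/cre+, -0.09, -0.30, -0.05 and -0.21 in LhTERTL, and -0.15, -0.33, -0.06 and 0.05 in LhTERTL/cre+. The mock/cre+ line was high, above mock by 0.43 ± 0.11 (adjusted p = 0.0109). INSIG2 was called lower in LhTERTL/cre+ than in mock/cre+ (-0.66 ± 0.11, adjusted p = 0.000266) and was not called in LhTERTL against mock (-0.27 ± 0.11, adjusted p = 0.105).

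STARD4, a carrier that moves cholesterol between membranes, read -0.06, -0.05, -0.08 and 0.45 in mock and -0.32, -0.68, -0.49 and -0.73 in mock/cre+. It read 0.54, 0.02, 1.11 and 0.79 in LhTERTL and 0.97, 0.95, 0.74 and -0.02 in LhTERTL/cre+. The long-telomere lines spread widely, each with 1 tumour near 0, and the difference was 0.88 ± 0.16 (adjusted p = 0.000268). SREBF1 encodes the SREBP that favours fatty acid genes. It ran from -0.04 to 0.10 in mock and from -0.03 to 0.25 in mock/cre+, against -0.11 to 0.02 in LhTERTL and -0.26 to 0.02 in LhTERTL/cre+. These groups overlapped, and the difference of -0.10 ± 0.05 was not called (adjusted p = 0.177). SREBF2, which encodes the SREBP that favours sterol genes, differed by 0.04 (adjusted p = 0.650), although 1 of its 3 probe sets was called higher (0.20, adjusted p = 0.0375) and the others gave 0.03 and -0.10. SCAP differed by -0.08 (adjusted p = 0.256). SCAP was higher in mock/cre+ than in mock by 0.26 ± 0.07 (adjusted p = 0.0160).

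Promoter sequences were looked up in RefSeq (GRCh38.p14) as windows of 250 bases before to 50 bases after a transcript start, and 27 of the 31 genes had at least 1 window. Motifs were searched on both strands. The sterol regulatory element core TCACNCCAC was in the window of 1 of these 27 genes, SREBF2, and in 1.13% of all 35116 windows. The CCAAT box, CCAAT, was in 64.9% of the 37 windows of these genes and in 34.6% of all windows. The GC box, GGGCGG, was in 89.2% and 45.0%, and the E-box, CACGTG, in 13.5% and 7.26%. The 250 bases before the start are shown for SREBF2, the gene with the core, for the INSIG genes, which moved in opposite directions, and for HMGCS1 and STARD4, which were called higher. These were picked after the values were seen. Capitals mark any of the 4 motifs on either strand, and neighbouring matches can join or overlap.
SREBF2: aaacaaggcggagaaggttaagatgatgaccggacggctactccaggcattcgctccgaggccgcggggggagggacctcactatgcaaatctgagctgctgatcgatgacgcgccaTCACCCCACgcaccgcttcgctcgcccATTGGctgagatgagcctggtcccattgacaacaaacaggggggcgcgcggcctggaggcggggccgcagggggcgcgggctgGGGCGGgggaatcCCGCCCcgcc
INSIG1: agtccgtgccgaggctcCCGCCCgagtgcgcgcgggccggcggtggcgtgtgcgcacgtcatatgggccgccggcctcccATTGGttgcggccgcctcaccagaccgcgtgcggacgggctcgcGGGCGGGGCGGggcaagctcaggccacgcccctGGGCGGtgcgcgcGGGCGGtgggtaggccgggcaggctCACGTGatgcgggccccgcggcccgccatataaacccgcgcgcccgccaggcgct
INSIG2: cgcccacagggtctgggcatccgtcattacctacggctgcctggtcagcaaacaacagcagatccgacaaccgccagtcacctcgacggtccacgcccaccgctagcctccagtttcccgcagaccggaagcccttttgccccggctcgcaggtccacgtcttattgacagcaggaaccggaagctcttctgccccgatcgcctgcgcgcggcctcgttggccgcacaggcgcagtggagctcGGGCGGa
HMGCS1: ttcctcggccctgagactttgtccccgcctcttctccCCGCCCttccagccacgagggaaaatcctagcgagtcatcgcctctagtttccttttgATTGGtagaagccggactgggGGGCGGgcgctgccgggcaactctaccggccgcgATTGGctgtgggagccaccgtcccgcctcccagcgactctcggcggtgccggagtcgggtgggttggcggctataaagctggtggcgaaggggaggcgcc
STARD4: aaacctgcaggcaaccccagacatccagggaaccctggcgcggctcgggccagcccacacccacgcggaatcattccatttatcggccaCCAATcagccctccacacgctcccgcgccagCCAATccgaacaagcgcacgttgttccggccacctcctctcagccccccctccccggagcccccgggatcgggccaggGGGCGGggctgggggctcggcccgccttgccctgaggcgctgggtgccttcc
The windows lie at chr22:41832855-41833104 on the plus strand for SREBF2, chr7:155297628-155297877 on the plus strand for INSIG1, chr2:118088221-118088470 on the plus strand for INSIG2, chr5:43313413-43313662 on the minus strand for HMGCS1 and chr5:111512536-111512785 on the minus strand for STARD4. In SREBF2 the core starts 133 bases before the transcript start, upstream of a CCAAT box read on the other strand. INSIG1 has 5 GC boxes, 1 CCAAT box and 1 E-box in its stretch, while INSIG2 has 1 GC box and neither of the others. HMGCS1 and STARD4 each have 2 CCAAT boxes. These matches describe the letters of the windows and nothing about binding.

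In fatty acid synthesis, 3 of 7 genes were called higher and 0 lower, beside 18.4% and 14.1% of all genes. In each separate pair 1 of the 7 was called, SCD in LhTERTL against mock and ELOVL6 in LhTERTL/cre+ against mock/cre+, near the 12.3% and 15% of all genes called higher. The genes that make palmitate gave small differences. FASN, the fatty acid synthase, ran from -0.14 to 0.03 in mock, -0.19 to 0.08 in mock/cre+, 0.03 to 0.15 in LhTERTL and -0.05 to 0.0030 in LhTERTL/cre+. These groups lay close together, and the difference was 0.08 ± 0.05 (adjusted p = 0.190). ACACA, which makes malonyl-CoA, differed by 0.0022 (adjusted p = 0.984). ACLY, which makes cytosolic acetyl-CoA from citrate, read -0.08, -0.08, -0.29 and 0.25 in mock, -0.27, -0.27, -0.05 and -0.17 in mock/cre+, 0.28, 0.28, 0.10 and 0.13 in LhTERTL and 0.02, 0.09, -0.03 and -0.0019 in LhTERTL/cre+. It was called higher at 0.23 ± 0.07 (adjusted p = 0.0122), with mock 4 inside the range of the LhTERTL tumours. Its probe set at 0.32 was called, and those at 0.20 and 0.17 were not.

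SCD, the desaturase that makes oleate, was highest in LhTERTL. It read -0.38, -0.41, -0.15 and -0.16 in mock, -0.0122, -0.32, 0.09 and -0.26 in mock/cre+, 0.53, 0.35, 0.29 and 0.48 in LhTERTL, and 0.21, -0.15, 0.04 and 0.07 in LhTERTL/cre+. LhTERTL lay above every other tumour, while LhTERTL/cre+ overlapped with mock/cre+. SCD was 0.69 ± 0.10 higher in LhTERTL than in mock (adjusted p = 0.000153) and was not called in the other pair (0.17 ± 0.10, adjusted p = 0.255). The difference between the pairs was 0.52 ± 0.14 (adjusted p = 0.0284). All 5 SCD probe sets were called higher between long and short telomeres, at 0.27 to 0.61.

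ELOVL6, which lengthens palmitate to stearate, read -0.02, -0.10, -0.19 and 0.0037 in mock, -0.26, -0.66, -0.46 and -0.16 in mock/cre+, 0.17, -0.10, 0.53 and 0.15 in LhTERTL, and 1.03, 0.58, 0.66 and -0.15 in LhTERTL/cre+. Tumour 4 of LhTERTL/cre+ lay far below its 3 fellows, and the difference between long and short was 0.59 ± 0.13 (adjusted p = 0.00192). The desaturases of polyunsaturated fatty acids, FADS1 (-0.02) and FADS2 (0.03), were not called. FADS1 was higher in mock/cre+ than in mock by 0.34 ± 0.11 (adjusted p = 0.0457).

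**Figure D4:**
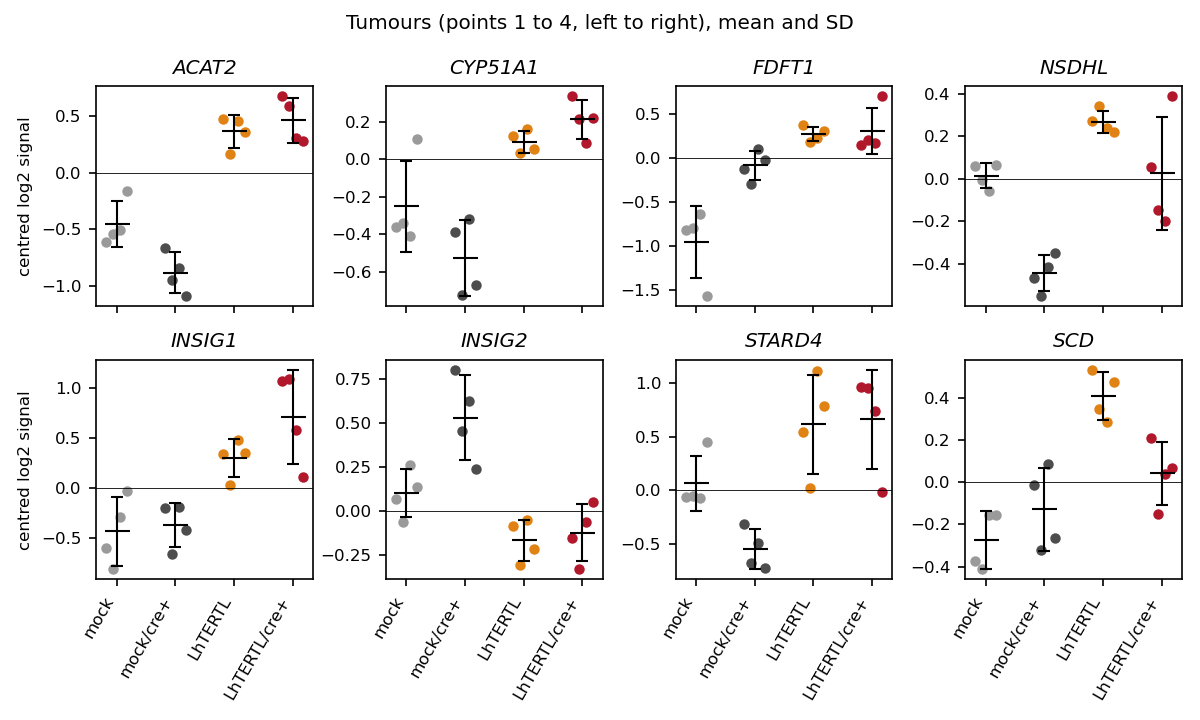
Centred log2 signal of 8 genes in the 4 tumours of each line (points, replicates 1 to 4 from left to right), with the mean and SD; each panel has its own scale. ACAT2 and INSIG1 separate the long-telomere from the short-telomere lines, FDFT1 is low in mock alone, INSIG2 is high in mock/cre+, and SCD is high in LhTERTL.

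LhTERTL and mock differ in exogenous hTERT as well as in telomere length. In this comparison 9 of the 31 genes were called higher and 0 lower by limma (16 higher and 1 lower at an unadjusted p under 0.05), where 20.3% of all genes were called, 12.3% higher and 8% lower. FDFT1 and ACAT2 had the smallest adjusted p, followed by SCD (0.69), LSS (0.22), INSIG1 (0.73), SC5DL (0.30), PMVK (0.34), CYP51A1 (0.34) and FDPS (0.22). The count depended on single mock tumours. It was 15 without mock 4, where 15.5% of all genes were called. It was 5 without mock 2, where 17.1% of all genes were called, so that the count was then near the background share.

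LhTERTL/cre+ and mock/cre+ both lack the exogenous hTERT. Here 12 genes were called higher and 2 lower, beside 28% of all genes called, 15% higher and 13% lower. ACAT2 and CYP51A1 had the smallest adjusted p (4.83e-07 and 8.39e-05), and STARD4 (1.21 ± 0.22), INSIG1 (1.08 ± 0.20) and ELOVL6 (0.91 ± 0.19) had the largest differences after ACAT2. The genes called lower were INSIG2 (-0.66) and HSD17B7 (-0.39). This is also the pair whose 3'/5' control ratio differed by -0.71.

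The pairs share no tumours. ACAT2, PMVK, FDPS, CYP51A1, SC5DL and INSIG1 were called higher in both, 6 of the 31 genes, beside 6.04% of all genes. They are 66.7% of the 9 genes called higher in the pair without Cre and 50% of the 12 in the pair with Cre. The like counts over all genes are 1226 called higher in both, of 2496 in the pair without Cre and 3044 in the pair with Cre. Of the 31 genes 22 had a positive difference in both pairs, against 36.1% of all genes. The difference between the pairs was called for FDFT1 and SCD, both larger in LhTERTL against mock, beside 5.62% of all genes called in that direction. None of the 31 was called in the other direction, beside 4.98% of all genes, and there 5 had an unadjusted p under 0.05 in limma.

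**Figure D5:**
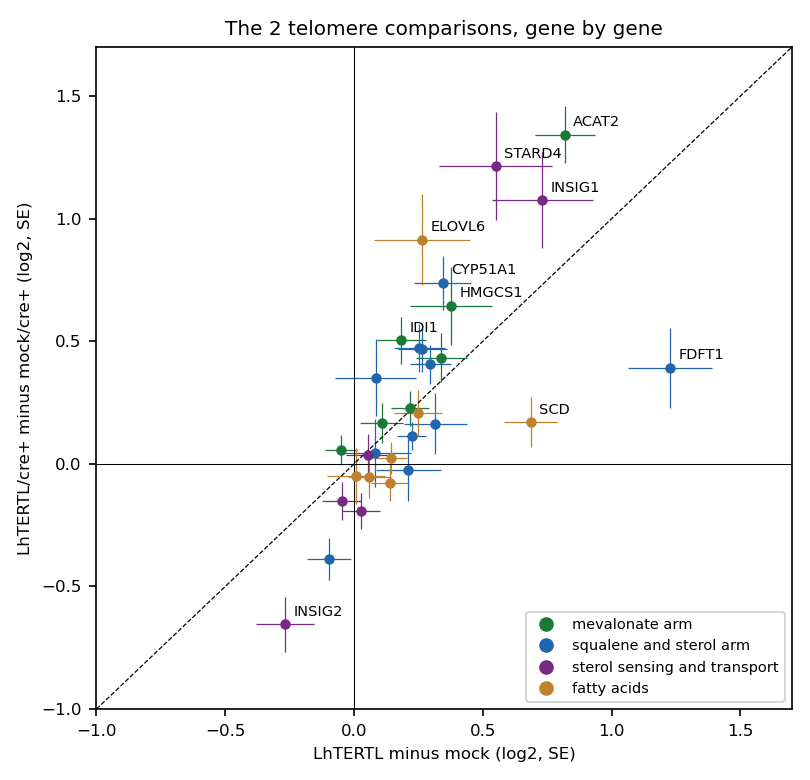
Log2 difference of each of the 31 genes in LhTERTL minus mock (horizontal) and LhTERTL/cre+ minus mock/cre+ (vertical), with SE bars, a dashed line of equal differences and colours by role. ACAT2, STARD4, INSIG1 and ELOVL6 lie above the line, and FDFT1 and SCD, the only 2 genes whose pairs differed by the test, lie far below it.

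Comparing the short-telomere lines, 5 genes were called higher in mock/cre+ than in mock and 3 lower, beside 19.1% of all genes called, 9.02% higher and 10.1% lower. The higher genes were FDFT1 (0.87), HSD17B7 (0.37), INSIG2 (0.43), SCAP (0.26) and FADS1 (0.34), and the lower genes were NSDHL (-0.46), IDI1 (-0.36) and ACAT2 (-0.43). The control lines thus differed in several of the same genes that separated long from short telomeres, and the 3'/5' ratio differed between them by 0.57 (exact permutation p = 0.0286, adjusted p = 0.0476). With that ratio as a covariate 2 were called higher and 1 lower, close to the 9.1% of all genes called in that fit.

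Between the long-telomere lines, LhTERTL/cre+ against LhTERTL, limma called 0 of the 31 genes (1 higher and 2 lower at an unadjusted p under 0.05), beside 3.24% of all genes called, 0.921% higher and 2.31% lower. The differences ran from -0.37 for SCD (adjusted p = 0.0570) to 0.41 for INSIG1 (adjusted p = 0.323), with a median SE of 0.10. NSDHL, next in adjusted p after SCD, differed by -0.24 (adjusted p = 0.216). By probe set, 1 of those of SCD was called lower (-0.37, limma adjusted p = 0.0157) and the others were not called. All LhTERTL/cre+ tumours lay below all LhTERTL tumours for 4 of the 31 genes, beside 5.77% of all genes. They lay above them for 0, beside 3.48% of all genes.

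The tumours of a line did not vary alike. In mock the median SD of the 31 genes was 0.168, against 0.105 over all genes, and in LhTERTL it was 0.0922 against 0.109. Mock 4 was the highest tumour of its line for 23 of the 31 genes, with a mean deviation of 0.20 from the line's means, the largest of any tumour. Over all genes its deviations had an SD of 0.125, within the 0.0892 to 0.156 of the mock tumours. The median of the mevalonate arm was 0.13 in mock 4, against -0.16, -0.26 and -0.24 in the other mock tumours. Without mock 4, 20 of the 31 genes were called between long and short, beside 30.2% of all genes.

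Counts in the lists of related genes are to be read against the 18.4% of all genes called higher and 14.1% called lower between long and short telomeres. Of 16 other genes of sterol and isoprenoid synthesis, 6 were called higher and 1 lower, with a median of 0.07 beside 0.02 over all genes. NUS1, a subunit of the enzyme that makes dolichol precursors, was higher by 0.79 ± 0.06 and PDSS2, a subunit of the enzyme that makes the tail of coenzyme Q, by 0.41 ± 0.08, while FNTB, a farnesyltransferase subunit, was lower (-0.41 ± 0.05). Of 15 genes of SREBP processing and sterol-regulated degradation, 3 were higher and 3 lower, with a median of -0.06, which is near the shares of all genes. ERLIN2 (0.28) and ERLIN1 (0.27), scaffolds of sterol-regulated degradation, were higher, and UBXN4 (-0.27) and SYVN1 (-0.20), which act in degradation at the endoplasmic reticulum, were lower.

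Of 19 genes of cholesterol uptake and trafficking, 2 were called higher and 4 lower, with a median of -0.04, so the number called was close to the 32.5% of all genes. MYLIP, a ligase that degrades lipoprotein receptors and a target of the sterol-sensing LXR receptors, was lower (-0.78 ± 0.11 log2 units), at -0.16 ± 0.16 in LhTERTL against mock and -1.40 ± 0.16 in the pair with Cre. LRP8, a lipoprotein receptor, was higher (0.43 ± 0.07), and the oxysterol-binding proteins OSBP (-0.40) and OSBPL2 (-0.47) were lower. Of 14 genes of cholesterol efflux and oxysterols, 2 were higher and 4 lower, with a median of -0.05. ABCA1, the LXR-regulated cholesterol exporter, was lower in both pairs (-0.37 and -0.50), as was SCARB2, a lysosomal membrane protein (-0.43 and -0.51). CYP27A1, which makes an oxysterol, was lower (-0.26) and SMPDL3A, an LXR target in human cells, was higher (0.29).

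In the neighbouring lipid pathways, 10 of 29 other genes of fatty acid synthesis and elongation were called higher and 5 lower, with a median of 0.0056, beside 18.4% and 14.1% of all genes. ELOVL4, an elongase of very long chains, was higher by 1.06 ± 0.15 and PTPLA, a dehydratase of elongation, by 0.53 ± 0.07. ACSL3, an acyl-CoA synthetase of lipid droplets, was lower (-0.96 ± 0.10), as was ACSS2, which makes acetyl-CoA from acetate (-0.40 ± 0.07). Of 18 genes of glycerolipid synthesis 6 were higher and 2 lower, with a median of 0.03. The higher ones included the acyltransferases GPAM (0.57 ± 0.06) and AGPAT9 (0.78 ± 0.11), the phosphatase LPIN1 (0.34) and DGAT2 (0.49), which makes triglyceride. Of 18 genes of fatty acid oxidation 10 were higher and 0 lower by limma (10 and 0 also at an unadjusted p under 0.05), with a median of 0.18, among them ECHS1 (0.62 ± 0.08), HADH (0.36), ACAA2 (0.42) and HADHB (0.26), enzymes of the mitochondrial cycle.

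Markers of other cell types in a tumour were read with human probes, which detect mouse RNA only by cross-hybridisation. Of 10 adipocyte markers 1 was called higher and 0 lower, with list means of -0.10 in mock, 0.05 in mock/cre+, 0.03 in LhTERTL and 0.0011 in LhTERTL/cre+. Of 9 macrophage markers 1 was higher and 0 lower, of 8 fibroblast markers 2 and 0, and of 8 keratinocyte and sebaceous gland markers 0 and 1. The list means of single tumours ran from -0.16 to 0.12 for adipocytes, -0.21 to 0.15 for macrophages, -0.09 to 0.23 for fibroblasts and -0.09 to 0.22 for keratinocytes and sebaceous glands. The fibroblast list averaged -0.03 in mock, -0.0083 in mock/cre+, 0.11 in LhTERTL and 0.0075 in LhTERTL/cre+. In LhTERTL against mock 2 of the 10 adipocyte and 2 of the 8 fibroblast markers were called higher and 0 lower. The other 8 and 6 were not called, and the list medians were 0.03 and 0.05. Among all genes 12.3% were called higher and 8% lower in that pair, so nothing is read from counts over lists this short. In LhTERTL/cre+ against mock/cre+ the counts were 0 higher and 1 lower of the adipocyte markers and 1 and 0 of the fibroblast markers. Their part in the differences was not tested.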

How the data were processed

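RNA of 16 xenograft tumours, 4 per line, was measured on Affymetrix arrays from 100 ng total RNA, per the labels. The deposited values are log2 RMA signals, RMA being named in the submitters' processing notes; the platform, software version and annotation are not given in the sources used here. Every probe set's median over the arrays was 0 within 0.5 millionths of a log2 unit, so the deposited log2 values had been centred, and no filter on dim genes could be run. Of 54675 probe sets, the 41479 that name exactly 1 gene were averaged to 20307 genes. Symbols are those of the deposited file, which holds older names. Depth has no counterpart on arrays; 4 arrays per group limit the precision.

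The tests were linear models in limma 3.58.1 (R 4.3.3; 1 mean per line over all 16 arrays, moderated variances, two-sided, Benjamini-Hochberg adjustment over all genes at 0.05). Tested on simulated data of 20307 genes for long minus short, the fit found 41.2% of genes shifted by 0.25 log2 units and 93.7% of those shifted by 0.5. The simulation shifted only a small part of the genes, drew normal noise independently for each gene and held no other differences between lines. The real fit called 32.5% of all genes, so these shares need not hold for it. Control ratios were compared with exact permutation tests (scipy 1.17.1). Tables were joined in pandas 2.3.3 and plotted with matplotlib 3.10.9 under Python 3.11.15.

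The genes, their roles, the other lists and the tests were chosen with earlier results of these data known. Tumour values were given for the 4 genes of each role with the smallest adjusted p between long and short telomeres, the 2 with the smallest in each other comparison and those whose pairs differed. From each other list up to 4 called genes with the smallest adjusted p were named; 1 gene this rule picks is not reported here. Alternatives tried were other gene values, quantile normalization, robust variances, array weights, a replicate block, fewer arrays, control covariates, stricter thresholds, the series matrix values, and, added after seeing the data, the low-spike arrays alone.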

Additional observations from a re-analysis of the deposited data

Results flagged for a closer look

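The difference between the long-telomere and the short-telomere line was not alike in the pairs for FDFT1 and SCD. LhTERTL minus mock exceeded LhTERTL/cre+ minus mock/cre+ by 0.84 for FDFT1 (adjusted p = 0.0262) and by 0.52 for SCD (adjusted p = 0.0284, limma). These are 2 of the 31 genes, a count near the 5.62% of all genes called in that direction. By probe set, FDFT1 gave 1.09 and 1.18, which were called, and 0.23, which was not. For SCD the probe sets at 0.46 and 1.03 were called, and those at 0.08, 0.21 and 0.80 were not. All 4 mock tumours had lower FDFT1 than every tumour of the other 3 lines, the short-telomere mock/cre+ included (mock/cre+ minus mock 0.87, adjusted p = 0.00113), and SCD was highest in LhTERTL in 4 of 4. Neither was called with the 3'/5' control ratio as a covariate, and the number of genes called ran from 0 to 5 when 1 tumour was left out.

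In 11 of 124 sets of 4 tumours (31 genes in 4 lines), 1 tumour lay far from the other 3, where chance flags about 1 in 20. Of these, 7 were high values of mock 4, in HMGCS1 (0.37), SQLE (0.56), CYP51A1 (0.11), TM7SF2 (0.12), SCAP (0.10), STARD4 (0.45) and FADS2 (0.13). The others were a low MVD in LhTERTL/cre+ 1 (-0.0411), a high FDFT1 in LhTERTL/cre+ 4 (0.71), a low LSS in mock/cre+ 3 (-0.15) and a low SREBF1 in LhTERTL 1 (-0.11).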

How the results depend on the processing

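All 19 genes called between long and short telomeres kept their sign in every alternative run that measured them. All 19 stayed called with medians of probe sets, robust variances, array weights, the replicate block, the spike class as a block and the series matrix values, 18 with quantile normalization, 17 at an adjusted p under 0.01 and 17 within the 11 low-spike arrays, an alternative added later. In the runs just named, from 22.9% of all genes (at an adjusted p under 0.01) to 35.4% (array weights) were called. The median of the 31 genes was 0.21 within the 11 low-spike arrays and 0.26 within the 5 high-spike arrays. The number called moved from 19 to 10 with probe sets free of the _s_at, _x_at and _a_at kinds (which leave out 11 genes). It moved to 10 without mock/cre+, to 0 with line means and to 5 at 1.5-fold. In these runs 29.3%, 21.5%, 0% and 4.57% of all genes were called, and the first measured 20 of the 31 genes. For LhTERTL against mock the number moved from 9 to 3 with those probe sets and to 16 with array weights. It was 4 at 0.01, 4 at 1.5-fold and 4 within the low-spike arrays. Those probe sets called 17.4% of all genes, so 3 of the 20 genes measured was near the background share. Array weights called 29.4% of all genes. The other counts for this pair, and those that follow for the other comparisons, are given without that share, and nothing is read from them. For LhTERTL/cre+ against mock/cre+ the number called moved from 14 to 8 with those probe sets and 7 at 1.5-fold. For mock/cre+ against mock it moved from 8 to 5 with quantile normalization, 4 with those probe sets, 3 with the 3'/5' ratio, 3 at 0.01 and 1 at 1.5-fold. For LhTERTL/cre+ against LhTERTL it moved from 0 to 1 with medians of probe sets, 2 with array weights and 1 with the replicate block. For the difference between pairs it moved from 2 to 0 with those probe sets, 4 with array weights, 0 with the ratio, 4 with the spike class, 0 at 0.01, 1 at 1.5-fold and 1 within the low-spike arrays. Leaving out 1 tumour gave 18 to 20, 5 to 15, 13 to 18, 6 to 10, 0 to 2 and 0 to 5 genes in these 6 comparisons. Where no fewer samples or genes explain a move, the cause was not tested. Replicate numbers were not shown to pair tumours: the 24 correlations between tumours of equal number lay between -0.33 and 0.37, with 9 above 0.1, and for 5 of the 16 arrays the best match had the same number; the replicate block left 19 genes called between long and short. A filter on dim genes was not run. Signal over background is unknown.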
